A study of Mus musculus with 7 samples.

Results

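The Rab genes encode the largest family of small GTPases in the cell, each of which sets the identity of a membrane compartment and recruits the tethers, motors and coats that move cargo to or from it. A Rab protein carries a lipid tail and cycles between a GTP-bound form on the membrane and a GDP-bound form in the cytosol. Guanine nucleotide exchange factors (GEFs) switch it on, GTPase-activating proteins (GAPs) switch it off, and the effectors bind the active form. In hepatocytes, which are polarized, recycling endosomes that carry Rab11 return receptors and transporters to the sinusoidal and the bile canalicular surface, and other Rab proteins act in the secretion of plasma proteins and lipoproteins.

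The Rab genes were taken as every gene whose symbol is Rab, a number and at most 1 further letter, and which the annotation of the array gives as the only symbol of a probe set. There were 59 such genes among 19938 tested, measured by 62 probe sets, and the probe set with the highest mean signal stood for a gene. Of these genes, 39 had a log2 signal averaging at least 5, and the other 20 lay below that level.

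Hepatocytes of male C57BL/6J mice, isolated with collagenase, received a mimic of miR-709 by transfection (1 µg), and the controls received the same amount of a worm miRNA, Cel-239b, in the same way. Total RNA was taken after 24 h. One Affymetrix Mouse Gene 1.0 ST array was run per replicate, for 4 replicates with miR-709 (A to D) and 3 with Cel-239b (B to D). No source used here says that replicates came from separate mice or isolations. The p-values therefore rest on the spread between arrays, which may be technical. The comparison asks which transcripts change when miR-709 is raised above its level in these cells.

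The values are log2 signals per probe set, in which a difference of 1 is a doubling. The arrays had median signals of 5.04 to 5.07 and correlated at 0.9951 to 0.9979 across probe sets. All 8 hepatocyte markers averaged at least 5, and the summed signal of the list was 15.01 to 15.05 with Cel-239b and 15.02 to 15.12 with miR-709 (log2). Of these markers 3 were called higher by limma (*Hnf4a*, *Tat* and *Cps1*), beside 3.15% of all genes at that signal level, and 5 were not called. The mean over the 8 stood at 0.25, 0.28, 0.18 and 0.15 from the Cel-239b mean on miR-709 arrays A to D (log2). The summed signal is carried by the brightest markers and shows little of these rises. Lists for stellate, endothelial, and Kupffer and leukocyte cells held 0 genes called by limma, with 1 gene below an unadjusted p of 0.05 (*Reln* of the stellate list). Of 5 cholangiocyte markers 1 fell (*Krt19*), and the summed log2 signal of that list was 8.87 to 9.61 with miR-709 and higher, up to 10.19, with Cel-239b. Interferon response genes stood higher on miR-709 arrays C and D than on all the others. These last lists are given again beside *Rab11b*.

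Among the Rab genes, *Rab11b*, which acts in the recycling endosome, fell with miR-709. The fall was about 4-fold on its brighter probe set and 2.56-fold on its dimmer one, whose mean log2 signal with miR-709 was under 5. *Rab28*, a GTPase of cilia and photoreceptors, rose by less than 2-fold. Neither *Rab11a* nor *Rab25*, the other members of the Rab11 subfamily, was called. A gene was called at an adjusted p under 0.05 from limma, a linear model with moderated variances, 2-sided and adjusted by Benjamini-Hochberg over the 19938 genes. Log2 fold changes are given ± their standard error. By that rule 1 of the 59 Rab genes was lower, beside 1.47% of all genes tested, and 1 was higher, beside 1.81%, so that the count in each direction was close to that of the array as a whole. Among the 39 genes of higher signal the calls were the same 1 and 1, beside 2.59% lower and 3.15% higher of the 10970 genes at that level. Under the methods' t-test, adjusted in the same way, *Rab11b* and *Rab28* were again the Rab genes called, beside 0.567% of all genes in each direction.

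The median log2 fold change of the Rab genes was 0.02, against 0.01 for all genes. Apart from the 2 called genes, the log2 fold changes lay between -0.23 (*Rab1b*) and 0.32 (*Rab23*). For 56 of the 59 genes the 95% interval of the change lay within 1.5-fold in either direction, beside 96.2% of all genes tested. For 58 it lay within 2-fold. The 59 include the 20 genes of low signal, for which a narrow interval says little. The interval passed 1.5-fold for *Rab11b*, *Rab28* and *Rab30*. *Rab11b* had the second lowest log2 fold change of all genes on the array and was 54th by p-value, while *Rab28* was 102nd by p-value.

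**Figure D1:**
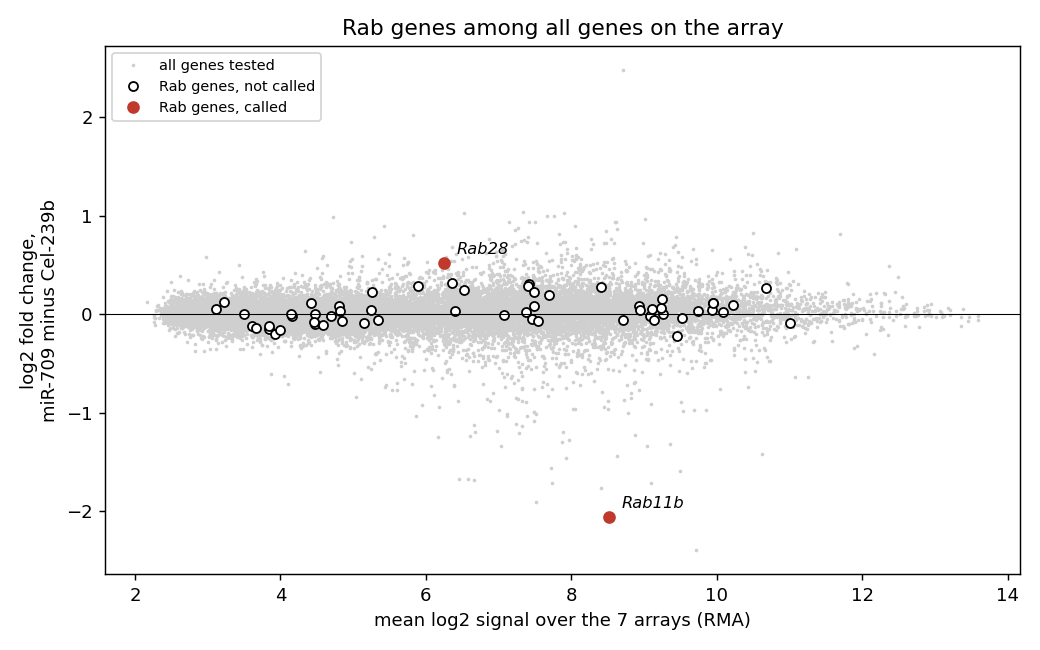
Log2 fold change (miR-709 minus Cel-239b, vertical axis) against the mean log2 signal over the 7 arrays (horizontal axis). Grey points are the 19938 genes tested, open circles the Rab genes that were not called and filled circles the 2 that were; all Rab genes other than *Rab11b* and *Rab28* lie between -0.23 and 0.32.

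*Rab11b* was measured by a pair of probe sets, and both were lower with miR-709. On the brighter one the log2 signal was 9.51, 9.75 and 9.82 on Cel-239b arrays B to D, and 8.09, 7.83, 7.29 and 7.32 on miR-709 arrays A to D. The groups did not overlap, and the lowest signals were on miR-709 arrays C and D. The mean fell from 9.69 ± 0.16 (SD, n = 3) to 7.63 ± 0.39 (SD, n = 4), which was -2.06 ± 0.19 with a 95% interval of -2.48 to -1.64 (4.17-fold lower, adjusted p = 4.4e-04, limma). In a bulk sample, fewer cells of a type and less RNA per cell cannot be told apart.

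The dimmer probe set of *Rab11b* gave 5.73, 5.90 and 5.37 with Cel-239b and 4.91, 4.02, 4.58 and 3.73 with miR-709. Its groups did not overlap either, although its miR-709 arrays were spread more widely (SD 0.53). The mean was 5.67 with Cel-239b and 4.31 with miR-709. The latter is under 5, so low signal limits how well the size of this fall is known. The log2 fold change was -1.36 ± 0.26 (2.56-fold lower), with an adjusted p of 0.0238 from limma over all probe sets with 1 symbol. The 2 probe sets differ in where the array's numbering places them: the brighter one stands between probe sets of *Spindoc* and *Rtn3*, on another chromosome than *Rab11b*, and between these genes the RefSeq annotation of GRCm38.p6 lists the pseudogene *Rab11b-ps2*. The neighbours of the dimmer one, *Marchf2* and *Angptl4*, lie on the chromosome of *Rab11b* itself. The brighter probe sets of *Rab2a* and *Rab5b* were numbered among genes of other chromosomes as well, which made 3 of the 62. Transcripts of gene and pseudogene that share sequence cannot be told apart on the brighter probe set, and the build that the array annotation used is not given in the sources used here.

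On the same arrays, other measures also moved. Signals of *Krt19*, a keratin of bile duct cells, were 9.71, 9.50 and 9.53 with Cel-239b and 8.97, 8.73, 7.91 and 7.79 with miR-709 (log2 fold change -1.23 ± 0.26, adjusted p = 0.0377, limma). The study lists *Krt19* among the genes it found lower on these same arrays, so its direction here is not independent evidence. Averaged over the 5 cholangiocyte markers, the log2 signal stood at -0.23, -0.21, -0.50 and -0.52 from the Cel-239b mean on miR-709 arrays A to D. The log2 fold change was below 0 for 4 of these markers and above 0 for *Epcam* (0.09 ± 0.08, adjusted p = 0.665, limma). *Epcam* and *Cftr* averaged under 5. The mean over 9 interferon response genes stood at -0.16, -0.07, 1.10 and 1.07 from the Cel-239b mean on the same 4 arrays, and the summed level of that list was 11.61 to 12.71 with miR-709 against 11.48 to 11.97 with Cel-239b. Limma called 0 of the 9, with 2 higher at an unadjusted p under 0.05. Arrays C and D thus had the lowest signals of the brighter *Rab11b* probe set. They also had the lowest mean of the ductal markers and the highest mean of the interferon response genes. The median of the ductal markers stood at -0.19, -0.18, -0.41 and -0.18 on miR-709 arrays A to D, so it was lowest on array C alone. On the dimmer *Rab11b* probe set, array B (4.02) lay below array C (4.58). With miR-709 arrays A and B alone, the log2 fold change of the brighter probe set was -1.73 (adjusted p = 0.011, limma). The part of the ductal markers and of the interferon response genes in the result was not tested.

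**Figure D2:**
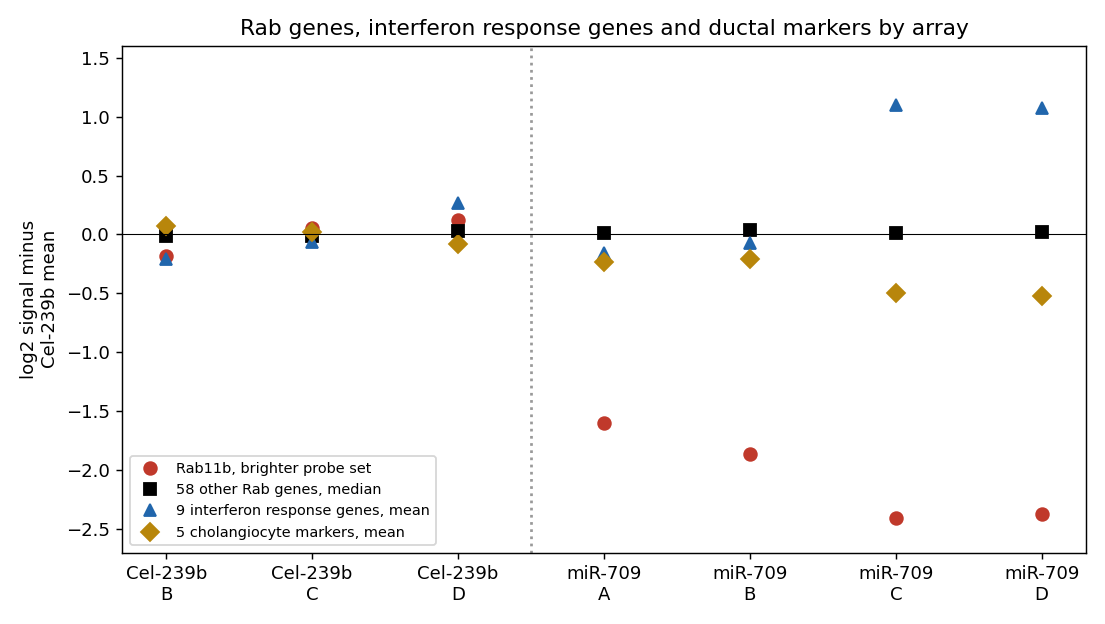
Log2 signal minus the Cel-239b mean (vertical axis) on each of the 7 arrays (horizontal axis), for the brighter *Rab11b* probe set (circles), the median of the 58 other Rab genes (squares), the mean of 9 interferon response genes (triangles) and the mean of 5 cholangiocyte markers (diamonds). *Rab11b* lies far below 0 on all 4 miR-709 arrays, and the median of the other Rab genes stays between -0.01 and 0.04 on every array. The mean of the interferon genes stands near 1 on miR-709 arrays C and D only.

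*Rab11a*, the widely expressed paralog of *Rab11b*, had log2 signals of 8.97, 8.71 and 8.54 with Cel-239b and 8.53, 8.74, 8.72 and 8.73 with miR-709. The groups overlapped, with Cel-239b arrays both above and within the range of the treated ones. The log2 fold change was -0.06 ± 0.10, with a 95% interval of -0.29 to 0.17 that holds neither a fall nor a rise of 1.5-fold (adjusted p = 0.841, limma). To compare the paralogs directly, the log2 difference *Rab11b* (brighter probe set) minus *Rab11a* was taken within each array. It was 0.54, 1.04 and 1.28 on the Cel-239b arrays and -0.44, -0.91, -1.43 and -1.41 on the miR-709 arrays. The mean difference between treatments was -2.0, with a 2-sided exact permutation p of 0.0286, the smallest that the 35 divisions of 7 arrays allow. As the fall of *Rab11b* on these same arrays was known when the test was chosen, the size of this difference is a description. Its p was bound to be small for the same reason and is not independent evidence.

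*Rab25*, the epithelial member of the subfamily, gave 4.24, 4.10 and 4.17 with Cel-239b and 4.17, 4.04, 4.06 and 4.34 with miR-709, a log2 fold change of -0.02 ± 0.08 (adjusted p = 0.95, limma). Its mean signal was under 5 in both groups, so the array says little about it.

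**Figure D3:**
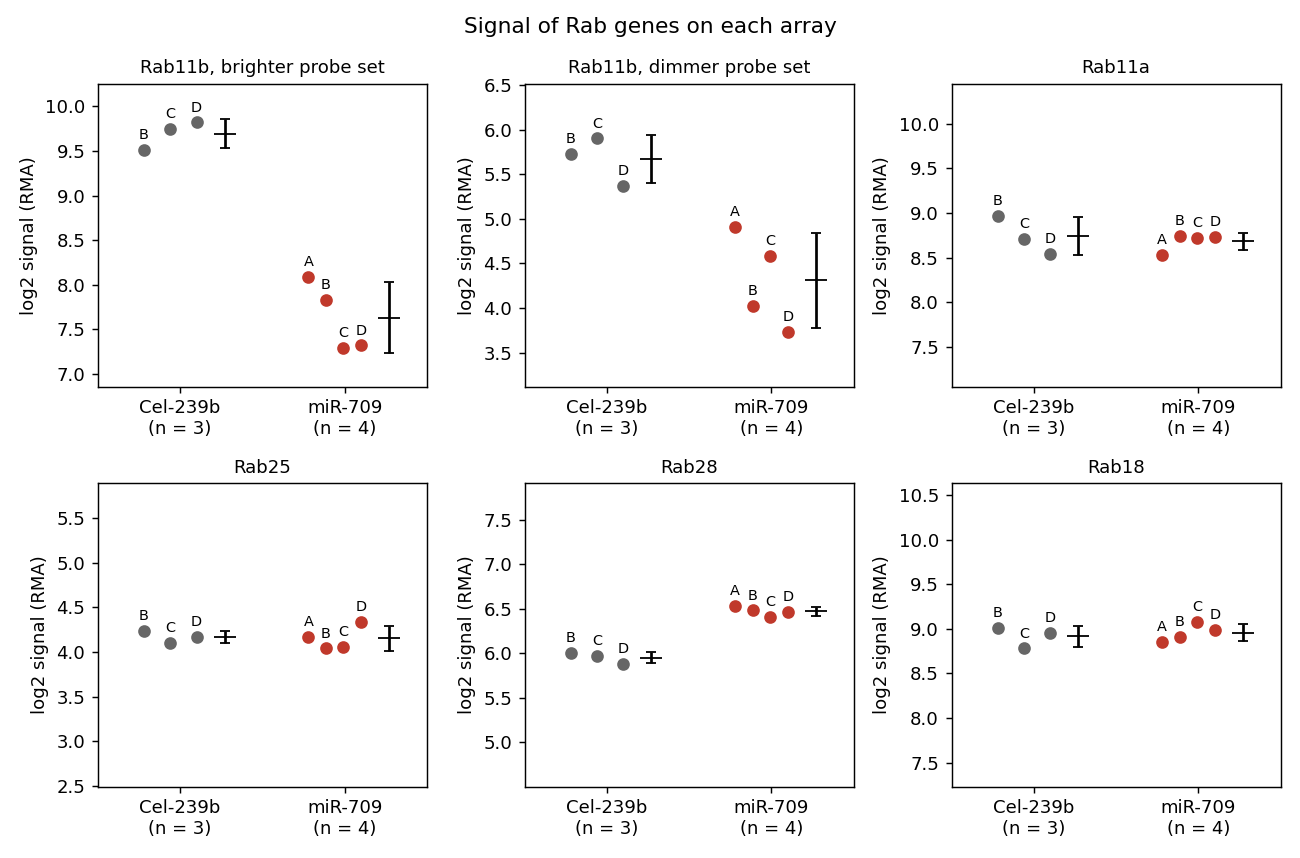
Log2 signal (RMA, vertical axes of equal span, each centred on its own values) of both *Rab11b* probe sets, *Rab11a*, *Rab25*, *Rab28* and *Rab18* on the 3 Cel-239b arrays (grey) and the 4 miR-709 arrays (red), with the replicate letter above each point and the mean ± SD beside each group. Groups are apart for both *Rab11b* probe sets and for *Rab28*, and overlap for *Rab11a*, *Rab25* and *Rab18*.

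The remaining genes of the recycling endosome list were not called. The 10 genes of this list had a median log2 fold change of -0.04, and without *Rab11b* they lay between -0.12 (*Rab15*) and 0.27 (*Rab4a*). *Rab4a*, which acts in fast recycling from the early endosome, had signals of 8.13, 8.31 and 8.31 with Cel-239b and 8.64, 8.60, 8.47 and 8.38 with miR-709. All treated arrays were above the controls, and the log2 fold change was 0.27 ± 0.08 (adjusted p = 0.13, limma). Its paralog *Rab4b* was at -0.07 ± 0.11. *Rab14*, of traffic between the Golgi and endosomes, was also above the controls on every miR-709 array, by a mean of 0.10 (± 0.05, adjusted p = 0.441). *Rab17*, an epithelial Rab of transcytosis, was at 0.20 ± 0.09 (adjusted p = 0.326), and *Rab35*, of endocytic recycling and cytokinesis, at -0.02 ± 0.08.

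In the early endosome list, all 7 genes averaged at least 5, and limma called 0, with 0 below an unadjusted p of 0.05 as well. Their log2 fold changes ran from -0.05 to 0.15, with a median of 0.02. *Rab5a*, which drives fusion of early endosomes, gave 9.82, 9.91 and 9.92 with Cel-239b and 9.99, 9.98, 10.10 and 9.91 with miR-709. The ranges met, and the log2 fold change of 0.11 ± 0.06 had a 95% interval of -0.03 to 0.25 (adjusted p = 0.463, limma). Both other Rab5 genes were nearer to 0, with *Rab5b* at 0.00 and -0.00 on its 2 probe sets and *Rab5c* at 0.06. The largest value of the list was that of *Rab22a*, which acts between early endosomes and recycling tubules, with 9.16, 9.01 and 9.32 against 9.28, 9.29, 9.43 and 9.26 and a log2 fold change of 0.15 ± 0.08 (adjusted p = 0.43). None of the 7 intervals reached 1.5-fold, which was also so for 96.2% of all genes tested.

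Among the 9 genes of late endosomes, lysosomes and autophagy, limma called 0, with 2 higher and 0 lower at an unadjusted p under 0.05. The 2 were *Rab7* and *Rab29*. *Rab7*, which guides late endosomes and autophagosomes to lysosomes, had signals of 10.61, 10.51 and 10.47 with Cel-239b and 10.89, 10.76, 10.82 and 10.71 with miR-709. No array overlapped, and the log2 fold change was 0.27 ± 0.07, or 1.20-fold, with a 95% interval of 0.12 to 0.41 (adjusted p = 0.0706, limma). This value missed the threshold narrowly, and it passed with an intensity trend in the variances (adjusted p = 0.0365) and when dim genes were left out (adjusted p = 0.0385). *Rab29*, of the trans-Golgi and of stressed lysosomes, gave 7.10, 7.31 and 7.33 against 7.58, 7.70, 7.41 and 7.52, a log2 fold change of 0.31 ± 0.09 (adjusted p = 0.109). *Rab9*, which returns cargo from late endosomes to the Golgi, was at 0.04 ± 0.09 (adjusted p = 0.901).

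The 15 genes of the endoplasmic reticulum and Golgi gave 0 calls by limma, with 1 lower and 2 higher at an unadjusted p under 0.05, and a median log2 fold change of 0.04. The 1 lower gene was *Rab1b*, which with *Rab1a* carries cargo from the endoplasmic reticulum to the Golgi. Its signals were 9.36, 9.68 and 9.70 with Cel-239b and 9.40, 9.39, 9.28 and 9.35 with miR-709. Cel-239b array B lay within the treated range, and the log2 fold change was -0.23 ± 0.09 (adjusted p = 0.257, limma). Without that array it was -0.34 and passed the threshold (adjusted p = 0.042). *Rab1a* was at -0.09 ± 0.08 (adjusted p = 0.66). *Rab33b*, a Golgi Rab that also acts in autophagy, gave 7.02, 7.40 and 7.32 against 7.41, 7.60, 7.58 and 7.55, which was 0.29 ± 0.09 higher on the log2 scale, with no overlap (adjusted p = 0.174). *Rab30*, another Golgi Rab, gave 5.82, 5.65 and 5.70 against 5.97, 6.42, 5.81 and 5.84. Its value of 0.29 ± 0.14 (adjusted p = 0.367) was 0.15 without miR-709 array B, the highest of them. *Rab6a*, of transport within and to the Golgi, was at 0.04 ± 0.06, and the probe sets of *Rab2a* were at 0.04 and -0.02.

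The secretory list was the dimmest, with 3 of 11 genes at a mean signal of at least 5. Limma called 0 of the 11, with 1 higher and 0 lower at an unadjusted p under 0.05, and their median log2 fold change was 0.00. *Rab3d*, of regulated exocytosis, had signals of 6.22, 6.51 and 6.40 with Cel-239b and 6.56, 6.58, 6.57 and 6.79 with miR-709. Every treated array was above the controls, by 0.25 ± 0.09 on the log2 scale (adjusted p = 0.204, limma). *Rab10*, which moves vesicles from the Golgi and recycling endosomes to the plasma membrane, gave 9.95, 9.77 and 9.92 against 9.98, 10.01, 9.98 and 10.01, a log2 fold change of 0.12 ± 0.06 (adjusted p = 0.423). *Rab8a*, of post-Golgi transport to the apical surface, was at 0.05 ± 0.07. The genes of specialised secretory granules, *Rab27a* and *Rab27b*, had mean signals under 5.

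*Rab18*, the Rab protein best known from the surface of lipid droplets, was the single gene of its list. Its log2 signals were 9.01, 8.78 and 8.95 with Cel-239b and 8.85, 8.91, 9.08 and 8.99 with miR-709. The treated and control arrays were interleaved, and the log2 fold change of 0.04 ± 0.08 had a 95% interval of -0.13 to 0.22 (adjusted p = 0.85, limma).

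*Rab28*, the Rab gene that rose, belonged to the list of cilium and other genes, whose median log2 fold change was 0.13 over 6 genes. Its signals were 6.00, 5.97 and 5.88 with Cel-239b and 6.53, 6.48, 6.41 and 6.46 with miR-709. The replicates lay close together and the groups were well apart, with means of 5.95 ± 0.06 (SD, n = 3) and 6.47 ± 0.05 (SD, n = 4). The log2 fold change was 0.52 ± 0.06 with a 95% interval of 0.39 to 0.65 (1.43-fold higher, adjusted p = 0.0015, limma). With miR-709 arrays A and B alone it was 0.56 (adjusted p = 0.0326). *Rab23*, a Rab of cilia that restrains Hedgehog signalling, gave 6.07, 6.10 and 6.37 against 6.62, 6.63, 6.40 and 6.36, a log2 fold change of 0.32 ± 0.10 (adjusted p = 0.144) with overlapping groups. *Rab40c*, whose product joins ubiquitin ligases, was at 0.23 ± 0.07 (adjusted p = 0.126).

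**Figure D4:**
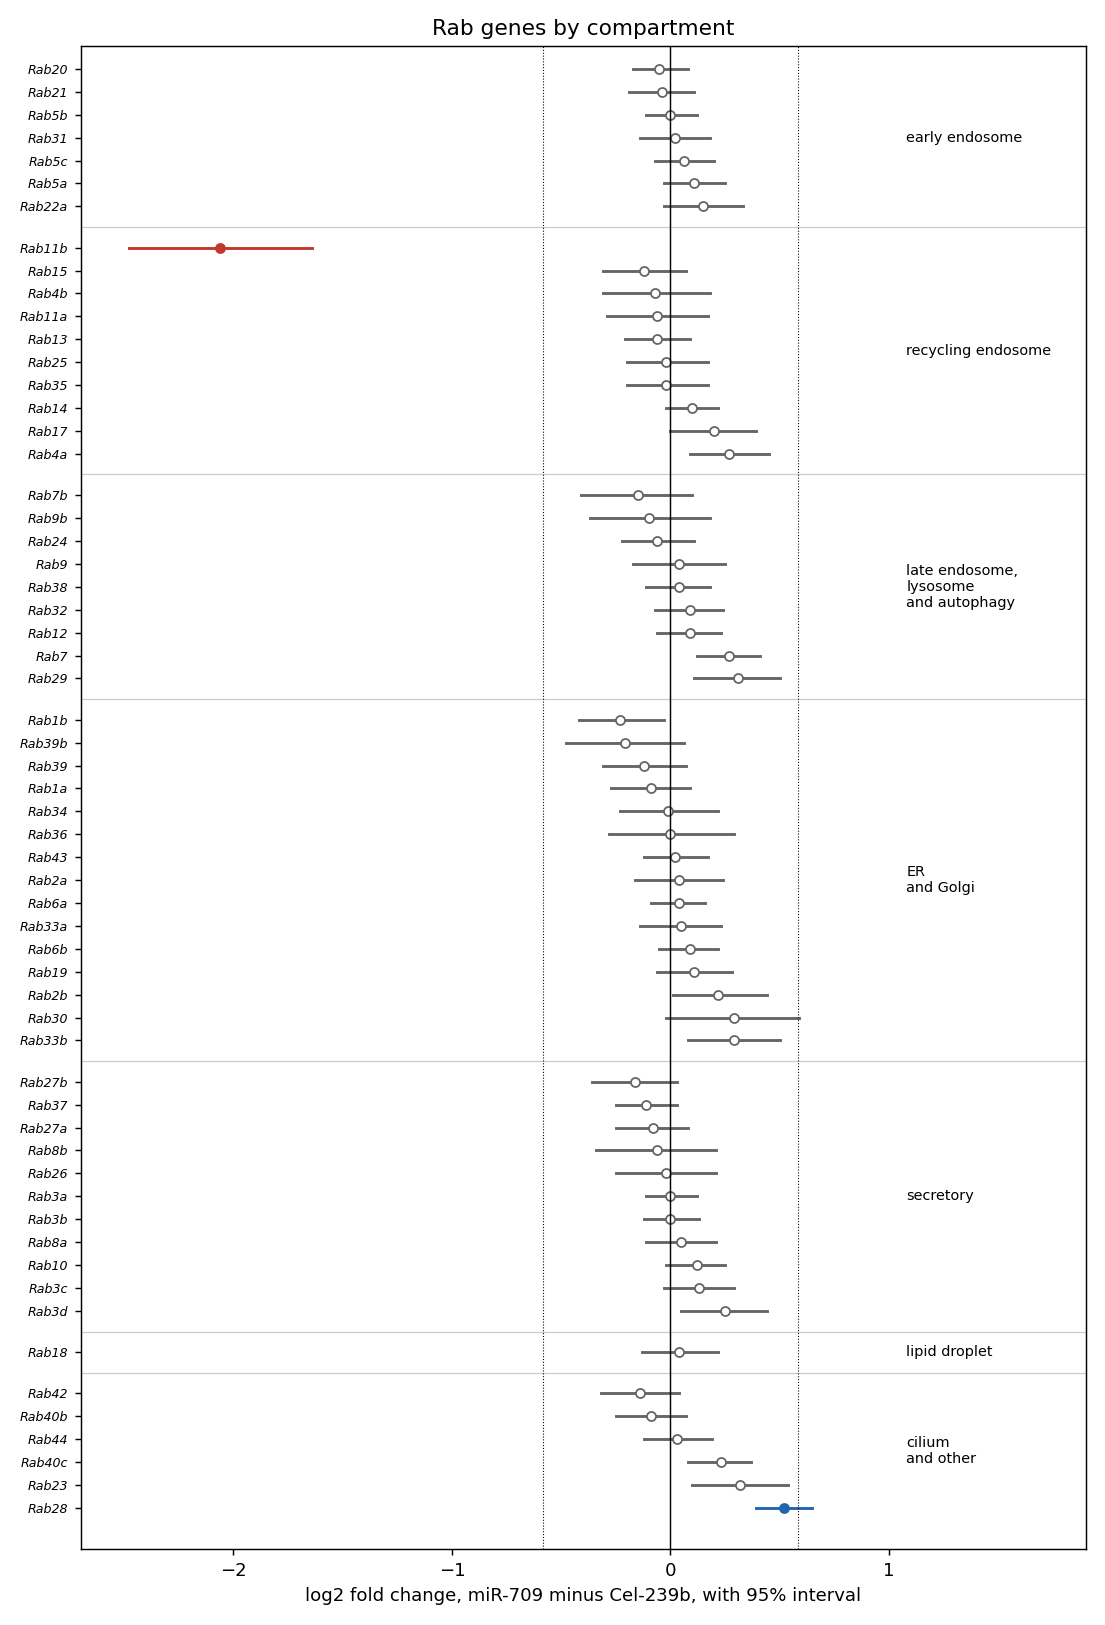
Log2 fold change (miR-709 minus Cel-239b, horizontal axis) of the 59 Rab genes by compartment, with 95% intervals from limma; filled red is lower and filled blue higher at an adjusted p under 0.05, and the dotted lines mark 1.5-fold in either direction. *Rab11b* at -2.06 and *Rab28* at 0.52 are the called genes, and *Rab30* is the other gene whose interval reaches a dotted line.

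The log2 fold change was above 0 for 35 of the 59 Rab genes (59.3%), beside 54.9% of all genes. After cyclic loess it was above 0 for 31 (52.5%), beside 50.9%. Over all 59 genes the signs were thus close to those of the array as a whole. Among the 39 Rab genes of higher signal, 27 were above 0, a larger share than the 56.6% of all genes at that level. All miR-709 arrays lay above all Cel-239b arrays for 9 of the 59 genes (15.3%), beside 7.44% of all genes tested, and below them for 1 gene (*Rab11b*, 1.69%), beside 4.91%. An unadjusted p under 0.05 was reached by 10 Rab genes on the higher side (16.9%, beside 9.15% of all genes) and by 2 on the lower side (3.39%, beside 5.83%). Among the genes of higher signal, the share without overlap on the higher side was 23.1% of 39 Rab genes and 11.8% of 10970 genes, and on the lower side 2.56% and 7.29%. An unadjusted p under 0.05 was reached there by 25.6% of the Rab genes and 14.3% of all genes on the higher side, and by 5.13% and 8.6% on the lower side. These are counts side by side without a test. The number of Rab genes wholly above the controls was 8 after a further quantile normalization (beside 7.42% of all genes), 8 after cyclic loess (beside 7%) and 9 after median centring (beside 6.74%). The 9 genes were *Rab3d*, *Rab4a*, *Rab7*, *Rab10*, *Rab14*, *Rab28*, *Rab29*, *Rab33b* and *Rab40c*, which belong to 5 of the 7 lists.

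The genes that regulate Rab proteins or bind them were read from lists of 5 kinds, with 115 genes measured. Of these, 4 were lower (3.48%, beside 1.47% of all genes tested), 3 were higher (2.61%, beside 1.81%) and 108 were not called. Their median log2 fold change was 0.02, and 103 of them had a mean signal of at least 5. Of these 103, 3.88% were lower and 2.91% higher, beside 2.59% and 3.15% of all genes at that level. The genes that attach Rab proteins to membranes or remove them (prenylation, escort and GDI proteins) had 0 calls among 7 by limma, with 1 higher and 0 lower at an unadjusted p under 0.05.

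Among the 12 effectors of Rab11, *Rab11fip5* fell. It encodes a member of the Rab11-FIP family, which link Rab11 to motors and to cargo sorting. Its log2 signals were 7.23, 7.29 and 7.14 with Cel-239b and 6.93, 6.81, 6.63 and 6.76 with miR-709. The groups did not overlap, and the log2 fold change was -0.44 ± 0.08 (1.35-fold lower, adjusted p = 0.0158, limma). The other 11 were not called and ranged from -0.20 (*Rab11fip3*, adjusted p = 0.257) to 0.19 (*Rab11fip2*, adjusted p = 0.291). *Rab11fip1* was at -0.06 and *Rab11fip4* at -0.02. The myosin motors of recycling endosomes, *Myo5a* and *Myo5b*, were at 0.15 and 0.02. *Exoc6* and *Exoc6b*, subunits of the exocyst tether, were at 0.04 and -0.02, and *Evi5*, *Zfyve27* and *Sh3tc2* were at 0.10, 0.07 and -0.16.

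Among 29 other effectors, 1 fell and 1 rose. *Plin3*, a coat protein of lipid droplets that also binds Rab9 on late endosomes, gave 10.01, 10.11 and 10.22 with Cel-239b and 8.93, 8.92, 8.63 and 8.68 with miR-709. It fell by more than 1 on the log2 scale on every treated array, with a log2 fold change of -1.32 ± 0.09 (2.50-fold lower, adjusted p = 1.2e-04, limma). The study lists *Plin3*, like *Rab11b*, among genes chosen on these arrays, so the array values of neither are independent evidence of its direction. For *Rab11b* the study also reports measurements other than the arrays. These were lower mRNA by quantitative PCR, less protein, and repression of a luciferase reporter that carried its predicted miR-709 sites. The protein was quantified at times later than the 24 h of the arrays. *Osbpl1a*, which encodes a sterol-sensing effector of Rab7, gave 6.83, 6.63 and 6.78 against 7.20, 7.25, 7.30 and 7.16. Its groups were apart, and it rose by 0.48 ± 0.07 on the log2 scale (1.40-fold, adjusted p = 0.00497).

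Among the 33 GEFs, 2 fell. *Dennd6a*, an exchange factor for Rab14, gave 8.67, 8.47 and 8.66 with Cel-239b and 7.63, 7.68, 7.55 and 7.70 with miR-709. The treated arrays lay close together, and the log2 fold change was -0.96 ± 0.07 (1.95-fold lower, adjusted p = 1.5e-04, limma). *Dennd2c*, of the same DENN domain family, gave 6.01, 5.87 and 5.97 against 5.71, 5.50, 5.46 and 5.34, a log2 fold change of -0.45 ± 0.09 (adjusted p = 0.0247). Among the 34 GAPs, 2 rose. *Usp6nl*, whose product acts on Rab5, gave 7.70, 7.75 and 8.11 against 8.37, 8.29, 8.19 and 8.35 and rose by 0.45 ± 0.10 on the log2 scale (adjusted p = 0.0458). *Tbc1d8*, a TBC domain gene, gave 6.44, 6.51 and 6.37 against 6.73, 6.82, 6.65 and 6.69 and rose by 0.28 ± 0.06 (adjusted p = 0.0482). Of the 7 calls, those of *Plin3* and *Dennd6a* held under every alternative tried, while the others were each lost under at least 1.

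**Figure D5:**
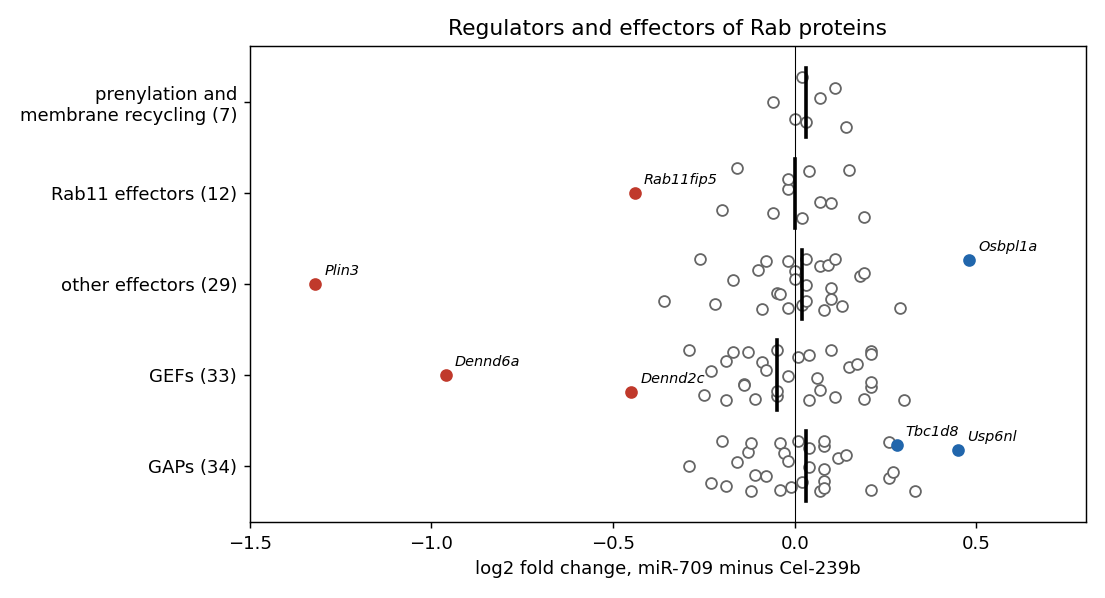
Log2 fold change (miR-709 minus Cel-239b, horizontal axis) of the 115 regulators and effectors measured, by list with the number of genes in brackets; filled points are lower (red) or higher (blue) at an adjusted p under 0.05, and the thick bars are the medians of the lists. The medians lie between -0.05 and 0.03, and *Plin3* and *Dennd6a* lie farthest from 0.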

How the data were processed

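The authors deposited log2 signals per probe set. Per the labels these came from RMA in Partek, which corrects background, equalises the distributions of the arrays and summarises probes; versions are not given in the sources used here. Equal distributions hide any change shared by all genes. Raw scans were not used here. Of 28853 probe sets, 21789 had 1 gene symbol through the array annotation (91 of the gene numbers were absent from the RefSeq table), 1621 had several and 5443 none. The brightest probe set was taken for the 999 genes that had more than 1. Treatments were compared with limma (version 3.58.1, R version 4.3.3), without covariates. The per-gene 1-way ANOVA named in the study (the methods' t-test here, as there are 2 groups) was an alternative. The number of arrays limits the precision. The script was tested on simulated data.

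The Rab genes, compartment lists, regulator lists (120 symbols, of which 1 is an older name of another listed gene and 4 were not measured, leaving 115 genes) and markers were chosen with earlier results of these data known. Array values are given for called Rab genes, *Rab11b*, *Rab11a*, *Rab25*, *Rab18*, the 2 largest changes per compartment among genes with a log2 signal of at least 5, up to 12 called regulators, and the log2 fold changes of Rab11 effectors. *Rab1b* and the other Rab genes given outside that rule were named after their values were seen. Alternatives were the methods' t-test, an intensity trend, a filter on dim genes, testing of every probe set, averaging of a gene's probe sets, 3 normalizations, array weights, the replicate letter as a block, each array left out and miR-709 arrays A and B alone. No miRNA or protein sequence was printed.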

Additional observations from a re-analysis of the deposited data

Results flagged for a closer look

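Of 33 Rab, regulator and effector genes whose 4 miR-709 arrays were checked for a replicate far from the others, 4 had one, where chance alone gives about 1 in 20 groups. The measure is the gap to the nearest array over the whole range, set against Dixon's critical value. For *Rab11a* the gap was 0.905, from array A at 8.53 to the others at 8.72 to 8.74. For *Rab3d* it was 0.913, from array D at 6.79 to the others at 6.56 to 6.58. For *Zfyve27*, an effector of Rab11, it was 0.867, and for *Sh3tc2*, another, it was 1.0, both with array D lowest. All 4 genes were not called, and without the array concerned none of them was called either.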

How the results depend on the processing

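*Rab11b* and *Rab28* kept their calls and directions under each of 18 alternatives, with log2 fold changes of -2.21 to -1.71 (adjusted p 1.5e-04 to 0.0416) and 0.48 to 0.56 (adjusted p 6.9e-04 to 0.0326). The count of lower Rab genes was 1 to 2 with an array left out, the second being *Rab1b* without Cel-239b replicate B. The count of higher Rab genes was 2 with an intensity trend in limma and with genes of a mean log2 signal of at least 5, *Rab7* being added in both. Over all genes the count of higher genes ran from 76 to 485 across the 18 alternatives, against 361 in the main fit. It thus also rose under some of them. Lower regulators and effectors numbered 4, and 2 with the methods' t-test, 2 with miR-709 arrays A and B only and 2 to 4 with an array left out (2 without Cel-239b replicate B, Cel-239b replicate C or miR-709 replicate D). Higher ones numbered 3, and 1 with the methods' t-test, 1 to 4 with an array left out (1 without Cel-239b replicate B or C or miR-709 replicate B, C or D), and 0 by limma with miR-709 arrays A and B only. In that last fit 11 of the 115 were higher at an unadjusted p under 0.05 (limma). The main fit gave 18 at that level, beside 9.15% of all genes. The share of all genes with arrays A and B only is not given here. *Osbpl1a* lost its call under 1 of the 18 alternatives, *Rab11fip5* under 5, *Dennd2c* under 8, *Usp6nl* under 9 and *Tbc1d8* under 15. The cause was not tested, beyond the fewer arrays in some of these fits. Over all genes, 293 lower and 361 higher became 113 and 113 with the methods' t-test, 92 and 76 with miR-709 arrays A and B only, 328 and 324 with cyclic loess, and 181 to 244 and 180 to 294 with an array left out. Without Cel-239b replicate C they were 181 and 180, and without Cel-239b replicate B 184 and 234. Lower genes were 189 without miR-709 replicate D, and higher genes 208 to 234 without each of the 4 miR-709 arrays, so the shares of all genes called fall with them.

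The *Rab11b* minus *Rab11a* difference of -2.0 was -2.21 to -1.84 with an array left out (exact permutation p 0.0667 or 0.1) and -1.63 with miR-709 arrays A and B only (exact permutation p 0.1), each the smallest p these designs allow. With the probe sets of a gene averaged, the dimmer one of *Rab11b* included, it was -1.65 (exact permutation p 0.0286). The fall of *Rab11b* on these arrays was known beforehand, so none of the permutation p-values of this difference is independent evidence. Whether the replicate letters pair the arrays could not be settled. Same-letter deviations correlated at only 0.013 to 0.046, although each array of letters B to D was closest to the array of its own letter. With the letter as a replicate block, the Rab counts stayed at 1 and 1, the higher regulators and effectors numbered 1, all genes 221 lower and 180 higher, and the difference was -2.20 (exact permutation p 0.25, the smallest of 8 sign changes). Genes of low signal, 20 of the Rab genes, limit what can be seen.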
